A study of Mus musculus with 3 samples.

Results

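The genes described here are 9 listed as mRNA decay factors, out of 32285 genes in the feature tables. These are Zfp36, Zfp36l1, Zfp36l2, Btg1, Btg2, Btg3, Tob1, Tob2 and Noct. They were taken by symbol, and all 9 were found. Levels were read in E14 cells (129/Ola background), an established mouse line of embryonic stem cells kept on gelatin in serum with leukemia inhibitory factor, by single-cell RNA sequencing of the 3′ ends of polyadenylated transcripts. From 24 h after seeding, 1 culture received 250 µg/mL cycloheximide, an inhibitor of translation elongation, for 3 h, another received it for 6 h (both in 0.007% ethanol), and the control received ethanol alone for 6 h. Each group was 1 library of 1 cell line, so no difference between conditions could be tested, and ethanol exposure was matched in duration to the 6 h library only. Cells were frozen before barcoding, per the labels' protocols. Transcript levels were followed with translation blocked, and no protein was measured.

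Zfp36 and its paralogs Zfp36l1 and Zfp36l2 are tandem zinc finger proteins that bind AU-rich elements in 3′ untranslated regions (3′ UTRs) and recruit the CCR4-NOT complex, which removes poly(A) tails. Btg and Tob proteins share a domain that binds the Caf1 deadenylases of that complex (Cnot7 and Cnot8) and are known as antiproliferative factors. Noct, nocturnin, belongs to the same nuclease fold family as the Ccr4 deadenylases and was later found to act on NADP(H). Many transcripts of this kind are themselves short-lived, and cycloheximide is known to slow the decay of some unstable mRNAs.

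The 3′ UTRs of the 9 transcripts were searched on the sense strand for ATTTA, for the heptamer TATTTAT and for the nonamer TTATTTATT. Each longer motif contains the shorter ones, so their counts overlap. The nonamer, the classical binding element of the Zfp36 proteins, occurred once each in Zfp36, Zfp36l1, Zfp36l2 and Noct, and in none of the other 5. It was present in 565 of 7459 expressed genes with an annotated 3′ UTR (7.57%). These 4 sites are shown, 5′ to 3′ on the transcript strand with the nonamer in capitals, because the same 4 transcripts had the lowest 6 h levels relative to control among the 9.
Zfp36: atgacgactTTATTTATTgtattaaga
Zfp36l1: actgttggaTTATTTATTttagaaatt
Zfp36l2: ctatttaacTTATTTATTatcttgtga
Noct: catttcaagTTATTTATTtgtgggatt

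The sequences come from GENCODE M21 transcripts on GRCm38, the assembly also called mm10. The Zfp36 site lies at chr7:28376952-28376978 on the minus strand, the Zfp36l1 site at chr12:80108168-80108194 on the minus strand, the Zfp36l2 site at chr17:84184915-84184941 on the minus strand and the Noct site at chr3:51250859-51250885 on the plus strand. The heptamer was found 3 times in each of Zfp36, Zfp36l1 and Zfp36l2, 2 times in Noct and Btg3, 1 time in Btg2 and Tob2, and 0 times in Btg1 and Tob1. It was present in 29.6% of the expressed genes. Among expressed genes with 3′ UTRs of like length, its share ran from 14.0% for Btg3 (439 bases) to 60.8% for Btg1 (4166 bases). No share by length was taken for the nonamer. The sites of the 3 Btg and Tob transcripts that hold the heptamer are shown with it in capitals, for contrast with the nonamers.
Btg3: ggacttgagTATTTATatattgtgc
Btg2: atgaagagcTATTTATacatgtttt
Tob2: tcacctgctTATTTATgtacgaggt

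The first of the 2 Btg3 heptamers is shown, at chr16:78360043-78360067, and the Btg2 and Tob2 heptamers lie at chr1:134077251-134077275 and chr15:81849862-81849886, each on the minus strand. A match is a run of letters, and binding was not measured. Over all expressed genes, the median log2 ratio at 6 h against control was 0.22 for the 565 genes with the nonamer and 0.16 for the 6894 without it. At 3 h the medians were 0.18 and 0.11, and at 6 h against 3 h they were 0.03 and 0.04. Genes past 2-fold lower at 6 h made up 3.19% of those with the nonamer (18 genes) and 2.15% of those without (148 genes). At 3 h the shares were 0.708% (4 genes) and 0.363% (25 genes). At 6 h against 3 h they were 1.42% (8 genes) and 0.609% (42 genes). Zfp36l1 and Noct are themselves among the 18 and the 8, so these shares are not independent of the members. Past 2-fold higher at 6 h were 7.61% of genes with the nonamer and 8.30% of those without. These higher shares were 4.60% and 3.87% at 3 h, and 0.177% and 0.116% at 6 h against 3 h.

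Promoter windows from 250 bases before to 50 bases after the start, from RefSeq on GRCm38.p6, were matched for 8 of the 9 genes, all but Zfp36l2. Searched on both strands were TGACGTCA, the cyclic AMP response element, TGANTCA, the AP-1 element, the CArG box of serum response factor, and TATAAA. A CArG box was found in Zfp36 alone among these 8 genes, a TGACGTCA in Btg2 alone and a TGANTCA in Zfp36l1 alone. These 3 matches are shown because each motif was found in only 1 of the 8 genes, with the motif in capitals.
Zfp36: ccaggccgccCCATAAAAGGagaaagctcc
Btg2: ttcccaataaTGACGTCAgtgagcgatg
Zfp36l1: accgcatggcTGATTCAacctcagtgt

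The matches lie 58, 166 and 129 bases before the start, at chr7:28379267-28379296, chr1:134079304-134079331 and chr12:80113126-80113152, all on the minus strand. The Zfp36l1 match has T at N, so it is not the AP-1 element itself. Of 32851 windows of the same length, 1.63% held the CArG box, 1.79% held TGACGTCA and 7.81% held TGANTCA with any base at N. The TATAAA motif was found in Zfp36l1, Btg1 and Tob1 and in 13.6% of all windows. Factor binding was not measured here.

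Cells were barcodes with at least 15000 unique molecular identifiers (UMIs, 1 per captured molecule) of which 1 to 20% were mitochondrial. This kept 2187 cells of the control, 1739 of the 3 h library and 2554 of the 6 h library, with median depths of 43160, 51726 and 46200 UMIs. The mitochondrial lower limit left out 62 control barcodes, 1 at 3 h and 8 at 6 h. The libraries shared 1 to 3 cell barcodes per pair. Embryonic stem cell markers such as Pou5f1 and Nanog summed to 7201 CPM (UMIs scaled to the library's total) in the control library, 8165 CPM in the 3 h and 7281 CPM in the 6 h library. Dppa5a alone gave 4771, 5327 and 5475 CPM of these sums. By CPM, 8 of the 9 markers were above control at 3 h and 7 were below it at 6 h, among them Zfp42 (455 to 240 CPM), Utf1 (545 to 329 CPM) and Pou5f1 (533 to 465 CPM). The 7 fibroblast markers summed to between 1.29 and 2.48 CPM, with Col3a1, Lum and Postn at 0 UMIs in every library. Markers of primitive endoderm, mesoderm, neural cells and trophoblast, 16 genes in all, each list summed to 14.5 CPM or less. Their part in the results was not tested. Mitochondrial UMIs made up 4.57%, 3.51% and 2.94% of the control, 3 h and 6 h cells.

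Levels of the 9 genes differed from control in both directions. UMIs were summed over the cells of a library and given as CPM of that sum, with exact Poisson 95% intervals that cover counting error only. At 6 h, Noct, Zfp36 and Zfp36l1 were more than 2-fold below control and Btg3 was more than 2-fold above it. Zfp36l2 stood just inside 2-fold, and Btg1, Btg2, Tob1 and Tob2 were at most about 1.28-fold from control by CPM. At 3 h none of the 9 was past 2-fold, and Btg3 was just short of it.

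**Figure D1:**
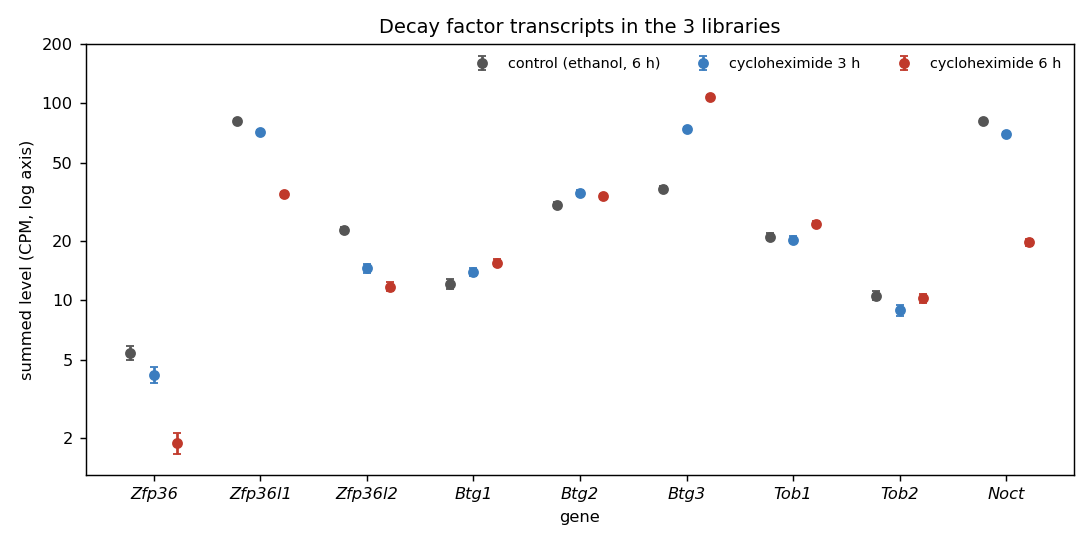
Summed level of each gene in CPM (log axis) in the control, 3 h and 6 h libraries, with points for the 1 library per group and bars for exact Poisson 95% intervals (counting error only). Noct, Zfp36, Zfp36l1 and Zfp36l2 each have their lowest level at 6 h, and Btg3 has its highest there, at 108 against 36.9 CPM in the control.

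Calls were by size alone, past 2-fold by CPM, and the background is the share of 7608 genes of at least 10 CPM (mean of the 3 libraries) past the same fold. At 3 h against control, 0 of 9 members were past 2-fold higher and 0 lower, against 4.32% and 0.513% of all genes. At 6 h against control, 1 of 9 was past it higher and 3 of 9 lower, against 8.65% and 2.41%. At 6 h against 3 h, 0 of 9 were past it higher and 3 of 9 lower, against 0.145% and 0.657%. The floor was met by 7 of the 9, with Zfp36 (mean 3.82 CPM) and Tob2 (9.90 CPM) below it. Of these 7, 0 were past 2-fold higher and 0 lower at 3 h against control. The counts were 1 higher and 2 lower at 6 h against control, and 0 and 2 at 6 h against 3 h. The 3 h and 6 h ratios share the control library, so they are not independent.

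How CPM relates to amount per cell depends on the scaling. The median log2 ratio of all 7608 genes was 0.11 at 3 h, 0.17 at 6 h against control and 0.04 at 6 h against 3 h. TMM scaling, which aims to centre most genes, shifted every log2 ratio by -0.17, -0.29 and -0.11 in these comparisons. It put the medians at -0.06, -0.12 and -0.07, so these genes were not centred at 0 by TMM either. Mean UMIs per cell without scaling shifted them by 0.27, 0.11 and -0.16. Of the split into higher and lower genes, 64.1% were higher at 6 h by CPM and 40.5% by TMM. At 3 h the shares were 64.1% and 42.6%, and at 6 h against 3 h they were 57.7% and 38.1%.

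Zfp36l1, the most abundant of the zinc finger trio in every library (each molecule is counted once at its 3′ end, so no length scaling applies), was lower mainly at 6 h. It is encoded on the minus strand at chr12:80107754-80113013. Its level was 81.6 CPM with ethanol, 71.2 CPM after 3 h and 34.6 CPM after 6 h, from 9099, 7610 and 4854 UMIs. The 6 h library was the low one, and its interval (33.6 to 35.6 CPM) was far from the other 2. The log2 ratio was -1.24 at 6 h against control (95% interval -1.29 to -1.19) and -1.04 at 6 h against 3 h. At 3 h against control it was -0.20, and 0.07 by mean UMIs per cell, so the direction at 3 h turned with the scaling.

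Zfp36, tristetraprolin, the founding AU-rich element binding protein, was scarce throughout. It lies on the minus strand at chr7:28376784-28380253. Its level was 5.38 CPM with ethanol, 4.18 CPM after 3 h and 1.88 CPM after 6 h, from 600, 447 and 264 UMIs. The 3 Poisson intervals did not overlap. The log2 ratio was -0.36 after 3 h (interval -0.54 to -0.18) and -1.52 after 6 h (interval -1.73 to -1.31), a 2.86-fold lower level at 6 h. It stayed below 0 under every scaling tried, from -1.80 to -1.41 at 6 h.

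Zfp36l2, the paralog on the minus strand at chr17:84183931-84187947, was lower at both times. Its level was 22.8 CPM with ethanol, 14.5 CPM after 3 h and 11.7 CPM after 6 h, from 2538, 1554 and 1647 UMIs. Most of the difference from control was present at 3 h, and the 3 h and 6 h levels were closer to each other. The log2 ratio was -0.65 after 3 h (interval -0.74 to -0.56) and -0.96 after 6 h (interval -1.05 to -0.87), which TMM put past 2-fold at -1.24. Only 1.70% of all genes of at least 10 CPM had a lower ratio at 3 h. Summed over the trio, the level was 109.8 CPM with ethanol, 89.95 CPM after 3 h and 48.2 CPM after 6 h. The sum's log2 ratio was -0.29 at 3 h, close to 0 (-0.02) by mean UMIs per cell, and -1.19 at 6 h. The placental relative Zfp36l3 had 0, 1 and 0 UMIs.

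Noct showed the lowest 6 h ratio of the set, after a level near that of the control at 3 h. It lies on the plus strand at chr3:51224447-51251644. Its level was 81.2 CPM with ethanol, 69.6 CPM after 3 h and 19.7 CPM after 6 h, from 9051, 7441 and 2762 UMIs. At 6 h it was 4.13-fold below control and 3.54-fold below 3 h. The log2 ratio at 6 h against control was -2.04 (interval -2.11 to -1.98), and 0.315% of genes had a lower one. At 3 h it was -0.22 by CPM and 0.05 by mean UMIs per cell, so that direction turned with the scaling.

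Btg3, an antiproliferative protein of the Btg family, was the one member past 2-fold higher at 6 h. It lies on the minus strand at chr16:78332637-78377192. Its level was 36.9 CPM with ethanol, 73.7 CPM after 3 h and 108 CPM after 6 h, from 4115, 7877 and 15153 UMIs. Each library's interval was clear of the others, in the order of exposure. The log2 ratio was 1.00 at 3 h (interval 0.94 to 1.05), a fold of 1.997 that was just under the 2-fold line, and 1.55 at 6 h (interval 1.498 to 1.60). The 3 h ratio ranged from 0.82 to 1.27 and the 6 h ratio from 1.26 to 1.66 over the alternatives. It was among the higher genes in both comparisons, with 95.6% of genes below it at 3 h and 97.2% at 6 h.

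Btg1 and Btg2, the other Btg genes measured, stayed near the centre of all genes. Btg1, on the plus strand at chr10:96617006-96622809, was at 12.1 CPM with ethanol, 13.9 CPM after 3 h and 15.5 CPM after 6 h. Its log2 ratio was 0.20 after 3 h and 0.36 after 6 h, above 0 under every alternative, with a TMM value of 0.07 at 6 h. Btg2, on the minus strand at chr1:134075170-134079120, was at 30.4 CPM with ethanol, 35.0 CPM after 3 h and 33.8 CPM after 6 h. The Btg2 log2 ratio was 0.21 after 3 h and 0.15 after 6 h, the latter -0.13 by TMM. The 3 h and 6 h Btg2 intervals overlapped, and both were above that of the control. These intervals cover counting error only and leave out the spread between cells, which was wide for Btg2. The top 5% of cells held 34.1%, 47.7% and 37.6% of its UMIs in the control, 3 h and 6 h libraries. The Btg trio summed to 79.4, 122.7 and 157.3 CPM, with a log2 ratio of 0.99 at 6 h and Btg3 as the largest term in the treated libraries. Btg1-ps1 and Btg1-ps2, the pseudogenes, had 0 UMIs in every library, which allows up to 0.0281 CPM from 3 counts. Btg4, an oocyte relative, had 0, 0 and 2 UMIs.

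Tob1 and Tob2, the larger members of the Btg and Tob superfamily, differed by at most 1.21-fold between any pair of libraries by CPM. Tob1, on the plus strand at chr11:94211454-94215495, was at 21.04 CPM with ethanol, 20.3 CPM after 3 h and 24.5 CPM after 6 h. Its log2 ratio was -0.05 after 3 h (interval -0.14 to 0.03) and 0.22 after 6 h (interval 0.14 to 0.30). The 3 h value was 0.22 by mean UMIs per cell and the 6 h value -0.07 by TMM, so both directions turned with the scaling. Tob2, on the minus strand at chr15:81848272-81858796, was at 10.6 CPM with ethanol, 8.89 CPM after 3 h and 10.2 CPM after 6 h. The Tob2 log2 ratio was -0.25 after 3 h and -0.05 after 6 h, and by mean UMIs per cell 0.02 and 0.06, so its direction also turned.

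**Figure D2:**
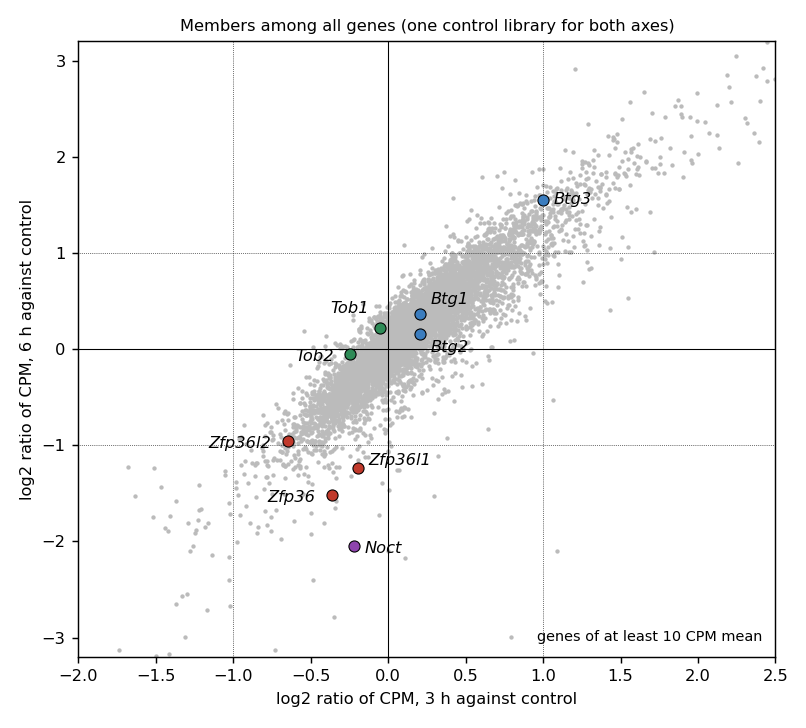
Log2 ratio of CPM at 3 h (horizontal) against that at 6 h (vertical), both against the same control library, for the 9 genes (large points) and all genes of at least 10 CPM mean (small grey points), within the axis limits. Btg3 sits alone of the set at the upper right, Noct, Zfp36 and Zfp36l1 lie below the dotted 2-fold line at 6 h, and Btg1, Btg2, Tob1 and Tob2 lie near the origin.

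Genes with the most similar ratios were taken as the 2 nearest by Euclidean distance in the 3 h and 6 h log2 ratios, over 3 libraries and among 5564 genes of at least 20 CPM. Etv5, a transcription factor of the ETS family, was nearest to Zfp36l1 (distance 0.0077), at 80.1, 69.9 and 34.1 CPM. Krt17, a keratin, followed at 0.0863. Hspa5, the endoplasmic reticulum chaperone BiP (0.0170), and Klf3 (0.0414) were nearest to Zfp36l2. Plpp1 (0.0177) and Triap1 (0.0328) were nearest to Btg3, with Triap1 at 47.7, 96.7 and 142 CPM. Noct stood apart, with 0 of 5564 genes within 0.1 of it. Its nearest was Socs3, the feedback inhibitor of cytokine signalling, at a distance of 0.23 and at 49.9, 49.8 and 11.6 CPM. Erf, an ETS repressor, followed at 0.30. The members near the centre had many close genes, for example Psmd5 and Mfsd10 for Btg1 (387 genes within 0.1), Dda1 and Atr for Btg2 (271) and Dcaf7 and Slc1a3 for Tob1 (143).

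Shares of cells with a UMI were compared after every cell was thinned to 15000 UMIs, which left out no cell. A Zfp36l1 UMI was seen in 66.8% of control cells (95% exact binomial interval 64.7 to 68.7), 59.2% at 3 h and 38.2% at 6 h. Without thinning the shares were 92.8%, 90.5% and 70.5%. For Noct they were 65.5%, 55.8% and 23.5% (unthinned 90.5%, 85.5% and 54.2%), with the lowest share of both genes at 6 h. A Btg3 UMI was seen in 42.3% of control cells, 65.3% at 3 h and 77.6% at 6 h (unthinned 77.5%, 94.1% and 96.4%). Zfp36 was detected in 7.54%, 5.35% and 2.51% of thinned cells (unthinned 21.8%, 19.0% and 9.44%), and Zfp36l2 in 28.1%, 20.6% and 15.8% (unthinned 59.9%, 52.5% and 43.3%).

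Thinned shares of the remaining genes varied less. Those of Btg1 were 16.7%, 18.0% and 19.2% (unthinned 40.9%, 49.7% and 50.5%), those of Tob1 26.2%, 25.4% and 30.6% (unthinned 58.3%, 60.8% and 66.1%) and those of Tob2 15.0%, 11.3% and 14.6% (unthinned 37.8%, 38.6% and 39.5%). Btg2 was detected in 31.3%, 28.2% and 31.1% of thinned cells (unthinned 59.2%, 55.8% and 63.0%), lowest at 3 h where its CPM was highest, and no order is read from these shares. No cell type lacking these transcripts was present, so free RNA was taken from barcodes of 10 to 100 UMIs. There Btg3 was at 35.6, 76.6 and 115 CPM and Noct at 88.6, 83.2 and 21.9 CPM, near the cell levels. Btg2 was lower in free RNA than in cells, at 17.8, 18.5 and 22.4 CPM. If 10% of each thinned cell's UMIs came from free RNA, a Btg3 UMI would appear in 5.20%, 10.8% and 15.8% of cells. For Noct that would be 12.5%, 11.7% and 3.24%, below the shares seen.

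**Figure D3:**
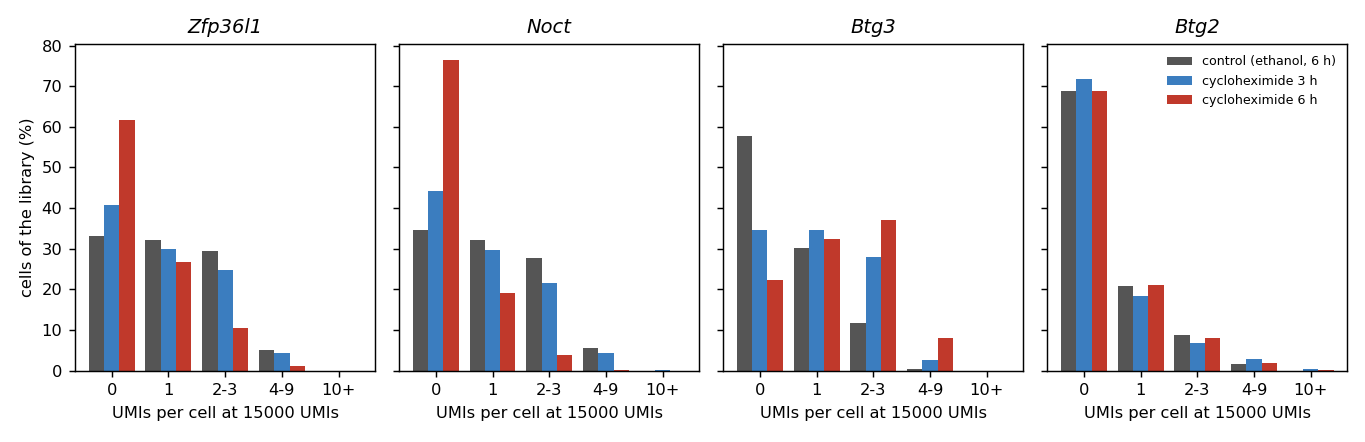
Percent of cells of each library (vertical) by the number of UMIs per cell after thinning to 15000 UMIs (horizontal), for Zfp36l1, Noct, Btg3 and Btg2 in the control, 3 h and 6 h libraries. Cells at 0 UMIs become more frequent for Zfp36l1 and Noct and less frequent for Btg3 at 6 h, while a few Btg2 cells reach 10 or more at 3 h and 6 h.

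Spread from cell to cell was measured as the squared coefficient of variation (CV) in excess of counting noise: the mean is taken from the variance and the rest divided by the mean squared, which is 0 for counting noise alone. It was given for the 8 genes of at least 0.05 UMIs per thinned cell in every library, all but Zfp36, beside the median of genes of like mean. Btg2 stood out, at 1.28 with ethanol, 5.52 after 3 h and 2.09 after 6 h of cycloheximide, against medians of 0.106, 0.119 and 0.1198. In each library over 98% of genes of like mean lay below it. Its summed level, by contrast, was between 30.4 and 35.0 CPM in the 3 libraries. The highest UMI number in a thinned cell was 7 with ethanol, 32 after 3 h and 15 after 6 h. The top 5% of cells held 34.1%, 47.7% and 37.6% of the Btg2 UMIs.

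Noct, Zfp36l1 and Btg1 also had a larger excess in the treated libraries than in the control. Noct was at 0.281, 0.648 and 0.856 in the control, 3 h and 6 h libraries, with 94.4%, 98.5% and 95.3% of genes of like mean below it, so its place at 6 h was near that in the control. Zfp36l1 was at 0.174, 0.341 and 0.541, with 88.6%, 95.6% and 95.9% of genes of like mean below it. Btg1 was at 0.263, 0.728 and 0.954, with 73.0%, 94.7% and 96.3% below. Thinning to 30000 UMIs kept the order of the libraries for all 3 genes, but put Btg1 at 0.363, 0.386 and 0.515. Btg3 was close to the median at 6 h, 0.0605 against 0.0618, and below it at 3 h, 0.02498 against 0.0645. Btg3 UMIs were thus spread over treated cells at least about as evenly as those of genes of like mean. Excess values of Zfp36l2, Tob1 and Tob2 ranged from 0.00651 to 0.649, and several moved with the thinning depth.

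**Figure D4:**
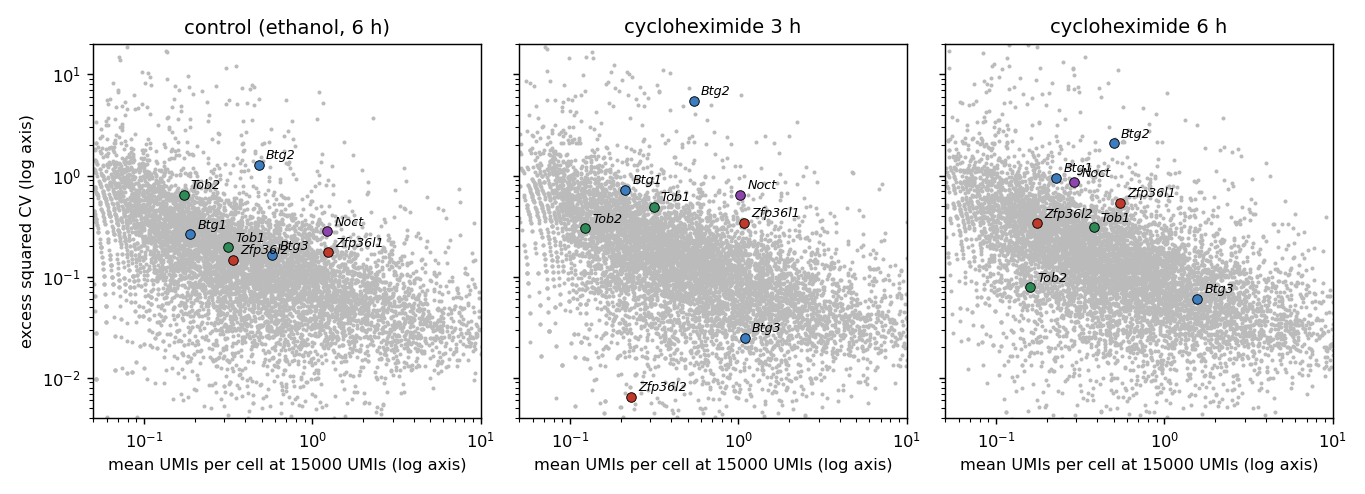
Excess squared CV (log axis) against mean UMIs per cell at 15000 UMIs (log axis) in each library, for 8 of the 9 genes (labelled points) and all other genes with a positive value within the axis limits (grey points). Btg2 lies far above genes of like mean in all 3 libraries, most at 3 h (5.52).

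Cells with 4 or more Btg2 UMIs after thinning numbered 35 of 2187 in the control (1.60%, exact interval 1.12 to 2.22), 55 of 1739 at 3 h (3.16%, 2.39 to 4.10) and 52 of 2554 at 6 h (2.04%, 1.52 to 2.66). Only in the treated libraries did any cell reach 10, with 6 cells at 3 h and 2 at 6 h. Without the cells of 4 or more, which lowers Btg2 by construction, its log2 ratio was -0.15 after 3 h and 0.07 after 6 h, and its excess squared CV was 0.626, 0.812 and 0.617. By mean UMIs per cell the ratios without these cells were 0.12 and 0.18, so the 3 h direction turned with the scaling. More cells were left out at 3 h than in the control, and they were picked by Btg2 itself. Relative to cells with 0 Btg2 UMIs, these cells had stem cell markers summed to 121 against 107 UMIs with ethanol, 114 against 121 after 3 h and 105 against 110 after 6 h. The summed markers of other lineages were 0.286 against 0.388 UMIs per cell with ethanol, 1.29 against 0.394 after 3 h and 1.00 against 0.388 after 6 h, and their part was not tested. These cells were also shallower, with median depths of 35061 against 43936 UMIs with ethanol, 44429 against 51447.5 after 3 h and 44132.5 against 45742.5 after 6 h before thinning. Their median mitochondrial shares were 5.86% against 4.49%, 3.88% against 3.47% and 3.58% against 2.86%, and the part of both was not tested.

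The genes whose thinned counts correlated most with Btg2 over cells, the 6 highest in each library, were 8 in all, chosen after their values were seen. Pearson's r with Mdm2, the ubiquitin ligase that limits p53, was 0.32 over the 2187 control cells, 0.60 over the 1739 cells at 3 h and 0.41 over the 2554 cells at 6 h. For Cdkn1a, the cell cycle inhibitor p21, r was 0.23, 0.62 and 0.37. For Plk2, a polo-like kinase, it was 0.32, 0.61 and 0.45, and for Phlda3, an inhibitor of Akt, it was 0.27, 0.59 and 0.43. Sdc4, the cell surface proteoglycan syndecan-4, had r of 0.26, 0.55 and 0.47, and Serpine2, a protease inhibitor, 0.25, 0.48 and 0.44. For Trp53inp1, a p53-induced nuclear protein, it was 0.31, 0.48 and 0.40, and for Ddit4l, a relative of the stress protein Redd1, 0.21, 0.51 and 0.39. The 99th percentile over 7962 genes was 0.117, 0.221 and 0.186. All points of a library share its preparation and free RNA. In the cells with 4 or more Btg2 UMIs at 3 h, Cdkn1a averaged 3.36 UMIs per thinned cell, against 0.251 in cells with 0 Btg2 UMIs. Mdm2 averaged 7.47 against 0.822 there. Both genes were picked by their correlation with Btg2 over these same cells, so a difference in this direction was built in. The direction was not particular to 3 h. Cdkn1a averaged 1.66 against 0.348 with ethanol and 3.44 against 0.705 at 6 h. Mdm2 averaged 4.34 against 0.838 with ethanol, and was also higher in such cells at 6 h. Summed over all cells, Mdm2 was at 67.6, 82.2 and 74.9 CPM, and Cdkn1a at 28.3, 30.5 and 60.1 CPM.

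Among the 9 genes themselves, the highest r of the 36 pairs was 0.094 with ethanol, 0.1401 after 3 h and 0.141 after 6 h, and r is low for most pairs of genes in sparse counts. Among the 6 genes of 7962 with the highest r at 3 h, Btg2 appeared for Zfp36 (0.13), Zfp36l2 (0.11) and Btg1 (0.11). At 6 h it appeared for Zfp36l1 (0.14), and Noct for Zfp36 (0.13). The 99th percentile of r over the scanned genes was 0.0614 to 0.0877 in these 5 cases. In cells with a Fos UMI, Btg2 averaged 0.963 UMIs per thinned cell at 3 h against 0.429 in cells without, a ratio of 2.24, and the ratio was 1.25 in the control and 1.55 at 6 h. Zfp36, also an early response gene, had ratios of 1.54, 1.40 and 2.46 in the control, 3 h and 6 h libraries, the last from 13 UMIs. In the same order, they were 1.20, 1.07 and 1.09 for Zfp36l1 and 1.08, 0.976 and 1.21 for Zfp36l2. Btg1 had 1.32, 1.17 and 1.28, Btg3 had 1.09, 0.979 and 1.02, and Tob1 had 1.13, 1.18 and 1.25. For Tob2 they were 0.882, 1.12 and 0.858, and for Noct 0.992, 1.19 and 1.35. The median ratio over 9489 genes was 0.996, 1.00 and 1.00, and these are descriptions of cells within a library.

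CCR4-NOT genes that met the floor of 10 CPM had 6 h ratios nearer to 0 than the members past 2-fold. Of the CCR4-NOT deadenylase list, 12 of 13 symbols were in the feature tables (Rqcd1 is an older name of Cnot9) and 11 met the floor of 10 CPM. Among those, 9 were above and 2 below control at 6 h, and 0 were past 2-fold in either direction at either time, also by TMM and by mean UMIs per cell. Of all 7608 genes, 64.1% were above control at 6 h by CPM, and 8.65% and 2.41% were past 2-fold higher and lower. At 3 h those 2-fold shares were 4.32% and 0.513%. Tnks1bp1, the listed gene below the floor, was at 13.4, 8.05 and 4.63 CPM. The median log2 ratio was 0.15 at 6 h, beside 0.17 for all genes, and -0.13 by TMM, where all genes were at -0.12. Cnot1, the scaffold of the complex, had the lowest ratio (-0.51, from 154 to 109 CPM), followed by Cnot6 (-0.06). Cnot4 (0.77) and Cnot2 (0.53) had the highest. The Caf1 deadenylases that Btg and Tob bind were Cnot7, at 44.9, 50.5 and 49.1 CPM, and Cnot8, at 36.1, 37.8 and 36.7 CPM, both named for that role.

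In the lists of other decay machinery, 0 genes of at least 10 CPM were past 2-fold by CPM in any comparison. Of all genes at that floor, 8.65% were past 2-fold higher and 2.41% lower at 6 h against control. The shares were 4.32% and 0.513% at 3 h, and 0.145% and 0.657% at 6 h against 3 h. Below the floor of 10 CPM, Zc3h12a, the endonuclease regnase-1, was at 9.26, 2.39 and 1.31 CPM from 1032, 255 and 184 UMIs. Also below it, Cpeb2 (log2 ratio 1.63) and Cpeb4 (1.14), cytoplasmic polyadenylation element binding proteins, were past 2-fold higher at 6 h. Among the genes that TMM put past 2-fold lower at 6 h were Dcp2 (-1.09), Ttc37 (-1.09), Samd4b (-1.11) and Rc3h1 (-1.23), and mean UMIs per cell put Dcp1a past 2-fold higher at 3 h (1.17) and 6 h (1.03). The 9 measured genes of Pan2-Pan3 and poly(A) binding had a 6 h median log2 ratio of 0.06, with Pabpc4 lowest at -0.50 and Pan2 highest at 0.21. The 18 decapping and 5′ decay genes had a median of 0.07. Dcp2, the decapping enzyme, was lowest at -0.80 (101 to 57.7 CPM) and its activator Dcp1a highest at 0.92 (10.7 to 20.3 CPM). The 13 exosome and Ski genes had a median of 0.10, from Ttc37 at -0.80 to Exosc2 at 0.44. By TMM the 6 h medians of these 3 lists were -0.23, -0.22 and -0.19, so their direction turned with the scaling. Of 14 other RNA-binding recruiters and stabilisers, Rc3h1, roquin-1, was at -0.94 (16.5 to 8.58 CPM) while its paralog Rc3h2 was at 0.54, and Tia1 was highest at 0.64. That list's median was 0.17, and -0.12 by TMM.

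Transcripts reported as targets of the Zfp36 proteins differed from control in both directions. Of 23 listed, 18 had over 3 UMIs in the control or the 6 h library, and 9 of those were higher and 9 lower at 6 h by CPM. The counts were also 9 and 9 at 3 h. Ptgs2, cyclooxygenase-2, had 11, 171 and 281 UMIs (log2 ratio 4.28 at 6 h), and Il10, an anti-inflammatory cytokine, had 6, 114 and 193 UMIs (4.56). They were at 2.00 and 1.38 CPM after 6 h. Vegfa, an angiogenic growth factor, was at 16.1, 4.50 and 2.73 CPM. The floor was met by 9, and 7 of those were below control both at 3 h (median log2 ratio -0.26) and at 6 h (median -0.65). Of all genes at the floor, 64.1% were above control at each time. Past 2-fold at 3 h were Pim1, higher, and Fos, lower. Past 2-fold at 6 h were 0 higher and 3 lower, Fos, Myc and Notch1. All 3 were under 10 CPM at 6 h (6.93, 6.78 and 6.11) and met the floor through their levels in the other libraries. Below the floor, Ptgs2 and Il10 (higher) and Vegfa (lower) were left out of this count and of the medians. The shares over all genes at the floor were 4.32% higher and 0.513% lower at 3 h, and 8.65% and 2.41% at 6 h. Fos, the AP-1 subunit, was at 45.4, 20.2 and 6.93 CPM, and Myc, a growth regulator, at 35.8, 25.6 and 6.78 CPM. Mcl1, an antiapoptotic factor, was higher at 120, 199 and 184 CPM, as was the kinase Pim1 at 48.8, 121 and 87.9 CPM. At 6 h against 3 h all 9 were lower, 2 of them past 2-fold. Of all genes, 57.7% were higher in that comparison and 0.657% were past 2-fold lower. The 3 h median turned with the scaling, to 0.01 by mean UMIs per cell, and with the floor, to 0.06 without one and 0.25 at 50 CPM. With the 50 CPM floor the 6 h median was 0.02.

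**Figure D5:**
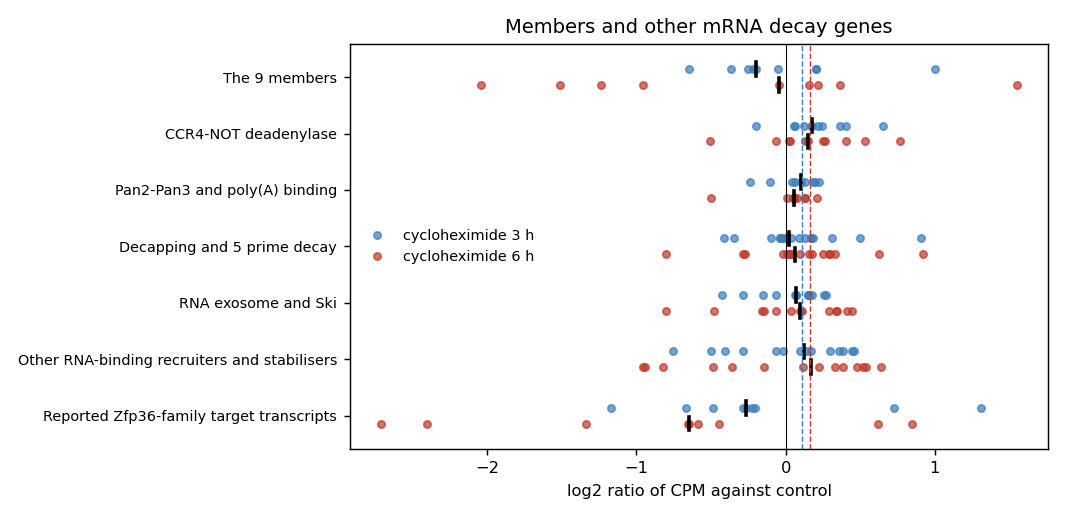
Log2 ratio of CPM against control at 3 h and at 6 h (horizontal) for each gene of at least 10 CPM mean in 6 lists and for the 9 members, with black bars at list medians and dashed lines at the medians of all genes (0.11 and 0.17). Most machinery genes drawn lie within 2-fold, while the reported targets and the members spread further below 0 at 6 h. The 9 members are drawn without the floor, Zfp36 and Tob2 included. Listed genes below it are not drawn, such as Zc3h12a (-2.82) and Tnks1bp1 (-1.53), lower at 6 h, and Cpeb2 (1.63) and Cpeb4 (1.14), higher.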

How the data were processed

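Single-cell libraries of 10x 3′ v3 chemistry were made from 3 cultures, 1 per group. Cell Ranger 4.0.0 and the mm10 build are named in the submitters' processing notes, and the file headers name Cell Ranger. The annotation release is not given in the sources used here. The authors deposited unnormalized UMI counts, 1 matrix per library, with all 6794880 barcodes listed, so cells had not been called.

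Barcodes with at least 15000 UMIs and 1 to 20% mitochondrial UMIs were kept, with 111447486 (control), 106842407 (3 h) and 140321458 (6 h) UMIs in them. Doublets were not removed. Counts were summed per library, and log2 ratios of CPM used a prior of 0.5 counts. Intervals are exact Poisson (levels), exact conditional binomial (ratios) and Clopper-Pearson (shares), all at 95% and for counting error only. With 1 library per group no test was made. A count of 2-fold changes was tested on simulated data with known folds. Cells were thinned to 15000 UMIs with a fixed seed.

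The named genes were the 9 members, the 2 highest and 2 lowest 6 h ratios of each list, and the 2 genes nearest to each member of at least 10 CPM. Genes correlated with Btg2, and Cnot7, Cnot8, Notch1, Samd4b, Tnks1bp1, Zc3h12a, Cpeb2, Cpeb4, Ptgs2, Il10 and Vegfa, were added after their values were seen. A gene that the rule names is not reported here. The members and lists were chosen with earlier results of these data known. A planned comparison of the proteins was not run. Python 3.11.15, numpy 2.4.6, scipy 1.17.1, pandas 2.3.3 and, for TMM factors, edgeR 4.0.16 in R 4.3.3 were used. Alternatives changed the scaling, prior, UMI minimum, mitochondrial limits, floor, doublets, free RNA and thinning depth, and leaving out cells of 4 or more Btg2 UMIs was added after the data were seen.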

Additional observations from a re-analysis of the deposited data

Results flagged for a closer look

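Tob1 had opposite signs at the 2 times, its log2 ratio being 0.22 after 6 h but -0.05 after 3 h, against the same control library. The difference was not tested, and the 3 h interval (-0.14 to 0.03) spans 0.

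Btg3 was also higher in the free RNA of the treated libraries, which the cell sums do not use. Barcodes of 10 to 100 UMIs held Btg3 at 76.6 CPM at 3 h and 115 CPM at 6 h, from 253 and 449 UMIs, above 35.6 CPM in the control from 128 UMIs. Subtracting 10% of free RNA turned the sign of 0 of the 9 members' ratios.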

How the results depend on the processing

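Each group had 1 library, so nothing measures the spread between cultures, and no replicate could be left out. No paired analysis was possible because each group holds a single library and no test was made. With TMM factors the medians were 0.0016 (CCR4-NOT), -0.16 (decapping), -0.07 (Pan2-Pan3 and poly(A) binding), -0.10 (exosome and Ski) and -0.05 (other recruiters) at 3 h, and -0.13 (CCR4-NOT), -0.23 (Pan2-Pan3 and poly(A) binding), -0.22 (decapping), -0.19 (exosome and Ski) and -0.12 (other recruiters) at 6 h. At 6 h against 3 h TMM turned those of decapping (-0.05), exosome and Ski (-0.11) and other recruiters (-0.11). With mean UMIs per cell they were 0.45 (CCR4-NOT), 0.37 (Pan2-Pan3 and poly(A) binding), 0.29 (decapping), 0.34 (exosome and Ski) and 0.39 (other recruiters) at 3 h, and 0.17 (Pan2-Pan3 and poly(A) binding) at 6 h. Mean UMIs per cell also turned those of decapping (-0.10), exosome and Ski (-0.16) and other recruiters (-0.16) at 6 h against 3 h. These shifts follow from the scaling factor itself.

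Btg3 made 1 member past 2-fold higher at 3 h, in place of 0, with mean UMIs per cell, with a minimum of 30000 UMIs and without the lower mitochondrial limit. TMM put 4 members, Zfp36l2 included, past 2-fold lower at 6 h. Signs turned for 4 members at 3 h, 1 at 6 h and 1 at 6 h against 3 h with mean UMIs per cell. They turned for 2 at 6 h with TMM, 1 each at 3 h and 6 h without the lower mitochondrial limit, and for Btg2 at 3 h and at 6 h against 3 h without cells of 4 or more Btg2 UMIs. A prior of 5 counts, other UMI minimums and 10% free RNA subtraction turned 0 signs of the members' ratios. Limits of 2 to 10% mitochondrial UMIs and dropping cells with more than 2 times the median UMIs also turned 0 of them. Both of these alternatives turned the median of other recruiters at 6 h against 3 h, from 0.004 to -0.002 and -0.012. Depth limits Zfp36 most, with 264 UMIs at 6 h.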
